A study of Mus musculus with 7 samples.

Results

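H19 and a set of genes from imprinted regions were described in mouse primary myoblasts and in the myotubes they form. The set held 10 genes, H19, Nctc1, Dlk1, Meg3, Rian, Mirg, Peg3, Plagl1, Mest and Grb10, out of 37975 genes in the authors' deposited table, and each symbol matched 1 row. H19 and Nctc1 were chosen by their FPKM and log2 fold change, higher in myotubes, so that difference is a description here and not a test. The other members were chosen with earlier results of these data in view. Imprinting itself was not measured, since the files give no value for either parental allele.

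Satellite cells, the stem cells of skeletal muscle, were sorted from mice of 4 to 6 weeks and grown as myoblasts. The labels state no strain, sex or genotype, nor how many animals were pooled. RNA with a poly(A) tail was sequenced from myoblasts in growth medium and from myotubes after 48 hours in medium with 5% horse serum, and both cultures carried an empty retroviral vector. The muscle transcription factor MyoD, of the basic helix-loop-helix class, was profiled in myotubes of 2 days with chromatin immunoprecipitation (ChIP), in a sample whose label traces it to an earlier deposit and mentions no vector. Each of these groups was 1 sample, and the 4 histone ChIP samples of the series were not analysed here.

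Imprinted genes are transcribed mainly from the maternal or the paternal copy, in many cases as set by DNA methylation placed in the germ line. Many of them sit in clusters that share a control region and enhancers, and many act on fetal growth. H19, a maternally expressed long non-coding RNA, and Igf2, a paternally expressed growth factor gene, compete for shared enhancers, and the insulator protein CTCF at the control region between them blocks Igf2 on the maternal copy. Nctc1 is a non-coding RNA transcribed across a muscle enhancer of that cluster. Meg3, Rian and Mirg are maternally expressed non-coding RNAs of a second cluster, in which Dlk1 is paternally expressed. Peg3, Plagl1 and Mest are paternally expressed, and Grb10 is maternally expressed outside the nervous system.

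Several of these RNAs carry microRNAs, and their sequences are shown because H19 and Mest changed in level while the small RNAs made from them were not measured by this library. The mature miR-675 pair lies in H19 and the miR-335 pair in Mest, by RefSeq coordinates of GRCm38.p6 (chr7:142577112-142577133 and chr7:142577078-142577099 on the minus strand, chr6:30741314-30741336 and chr6:30741354-30741375 on the plus strand). Capitals mark the seed, bases 2 to 8, and no seed is shared among these arms:
mmu-miR-675-5p: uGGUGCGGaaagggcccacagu
mmu-miR-675-3p: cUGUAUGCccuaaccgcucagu
mmu-miR-335-5p: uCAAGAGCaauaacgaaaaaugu
mmu-miR-335-3p: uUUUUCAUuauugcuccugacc

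The most upstream window of each called member in the RefSeq promoter table is shown, since MyoD binds E-boxes, the motif CANNTG. The RefSeq table held 13 windows for 9 of the 10 members, each running from 250 bases before to 50 after a gene's start. H19 is named only. CANNTG, which reads the same on both strands, was in 9 of the 13 windows (69.2%), against 72.3% of all 32851 windows. The 13 are not independent, since 2 of the 3 Mest windows overlap almost entirely and share 1 CACATG. The form CAGCTG, or CACCTG on either strand (then read as CAGGTG), all of which CANNTG also counts, was in 1 of the 13 windows (7.69%) and in 32.9% of all windows. That window was the upstream one of Mest and held CAGCTG as well as CACCTG. The Nctc1 window held CAATTG at base 59, and the upstream windows of Grb10 and Meg3 held no CANNTG, while the second window of Grb10 held CACTTG and that of Meg3 CATGTG. Rian and Mirg each had 1 match and Plagl1 had 2, and Dlk1 and Peg3 had none. In the sequences, in the direction of transcription, capitals mark CANNTG (GRCm38.p6, Nctc1 at chr7:142558549-142558848 on the minus strand, Grb10 at chr11:12037371-12037670 on the minus strand, Meg3 at chr12:109540746-109541045 on the plus strand, Rian at chr12:109603695-109603994 on the plus strand, Mest at chr6:30733256-30733555 on the plus strand):
Nctc1: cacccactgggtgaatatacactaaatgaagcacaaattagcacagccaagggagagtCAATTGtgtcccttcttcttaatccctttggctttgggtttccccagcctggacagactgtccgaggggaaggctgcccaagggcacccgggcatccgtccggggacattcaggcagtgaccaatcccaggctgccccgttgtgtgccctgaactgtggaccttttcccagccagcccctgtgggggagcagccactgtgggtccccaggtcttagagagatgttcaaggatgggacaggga
Grb10: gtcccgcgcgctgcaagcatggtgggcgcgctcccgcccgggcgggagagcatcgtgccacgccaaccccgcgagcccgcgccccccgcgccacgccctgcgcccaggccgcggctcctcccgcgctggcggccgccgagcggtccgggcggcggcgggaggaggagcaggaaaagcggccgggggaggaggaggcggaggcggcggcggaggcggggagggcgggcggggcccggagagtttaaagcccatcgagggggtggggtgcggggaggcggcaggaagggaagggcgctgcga
Meg3: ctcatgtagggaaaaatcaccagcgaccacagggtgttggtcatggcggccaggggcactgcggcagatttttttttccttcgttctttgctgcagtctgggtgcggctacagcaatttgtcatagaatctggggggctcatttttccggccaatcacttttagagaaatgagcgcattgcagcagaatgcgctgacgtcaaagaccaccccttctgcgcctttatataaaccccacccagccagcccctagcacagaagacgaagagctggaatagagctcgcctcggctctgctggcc
Rian: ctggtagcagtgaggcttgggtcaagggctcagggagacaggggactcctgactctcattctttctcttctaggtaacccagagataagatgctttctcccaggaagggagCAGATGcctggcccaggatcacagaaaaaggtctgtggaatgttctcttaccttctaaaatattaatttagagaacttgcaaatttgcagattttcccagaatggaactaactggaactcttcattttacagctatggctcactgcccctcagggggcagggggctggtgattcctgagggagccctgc
Mest: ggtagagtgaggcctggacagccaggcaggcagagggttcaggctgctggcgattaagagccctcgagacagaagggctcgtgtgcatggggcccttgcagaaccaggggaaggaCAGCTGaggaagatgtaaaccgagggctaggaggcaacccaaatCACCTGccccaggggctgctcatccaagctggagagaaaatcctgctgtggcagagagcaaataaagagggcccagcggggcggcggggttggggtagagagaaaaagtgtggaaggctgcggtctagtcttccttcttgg

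Expression was given as FPKM, fragments by transcript length and library size, with 1 value per condition. The depth of the RNA libraries is unknown, and no replicate check of any difference was possible. Each standard error (SE) follows from the authors' test statistic, and a positive log2 value means higher in 2-day myotubes. How far these SEs, and the intervals built from them, cover variation between cultures is unknown. A gene was called where the authors marked it significant, at a q-value of at most 0.05. For 15416 tested genes, those above 0 in both conditions, the median log2 fold change was -0.41 in the authors' deposited table, so a gene at 0 on that scale lay above the median gene. Myotube markers were Myog, Ckm, Myh3, Acta1 and Tnnt3. They summed to 1298 FPKM in growing cells and 21242 in 2-day cells, all 5 of 5 above 0 in both. Myoblast markers (Pax7, Myf5, Myod1, Des and Cdh15) did not fall in sum, at 1616 FPKM in growing cells and 3232 in 2-day cells. That rested on Des, which alone was at 2785 in 2-day cells. The others together were lower there than Myod1 alone in growing cells, at 895. Of 19 markers of other cell types, 6 were at 0 in growing myoblasts (Dpt, Lum, Plin1, Fabp4, Kdr and Ptprc). In 2-day myotubes 6 were at 0 too (Dpt, Lum, Adipoq, Plin1, Cd14 and Sox10). Their summed levels ran from 0.272 FPKM (adipocytes) to 75.0 (smooth muscle and pericytes) in growing myoblasts and from 0.228 (adipocytes) to 9.24 (smooth muscle and pericytes) in myotubes. Their part in the values below was not tested. In bulk RNA, fewer cells that express a gene and less RNA per cell cannot be told apart.

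Of the 10 members, 9 were tested and 6 were called in the authors' deposited table, 3 higher (H19, Nctc1 and Grb10) and 3 lower (Meg3, Rian and Mest). Without H19 and Nctc1, which were chosen for their rise, 4 of 7 tested members were called, 1 of them higher. Over all 15966 tested genes 23.9% were called, 6.52% higher and 17.3% lower. Because the members were chosen with this comparison known, nothing is read from the difference between these shares. After centring on the median gene, 3 members were higher and 2 lower, as Rian, at 0 in myotubes, has no finite fold change to centre. The median log2 fold change of the 8 members with a finite value was -0.14 in the authors' deposited table. Both directions occurred among the maternally expressed members, and among the paternally expressed ones Mest was called lower while Dlk1, Peg3 and Plagl1 were not called.

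**Figure D1:**
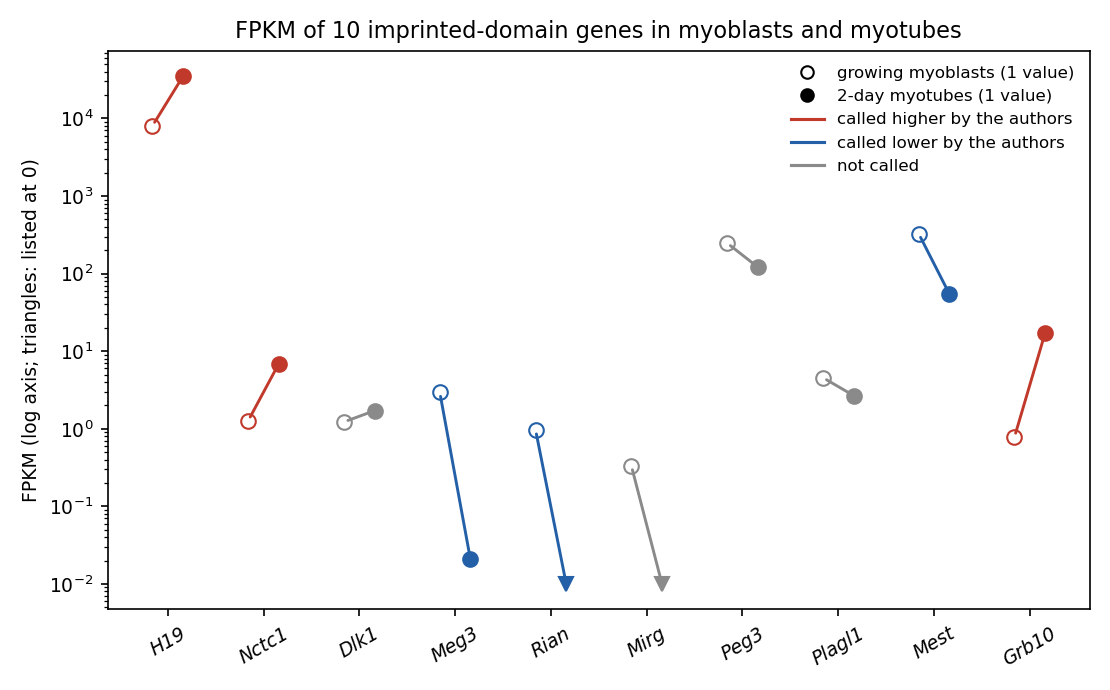
FPKM of the 10 members (log axis), open circles for growing myoblasts and filled ones for 2-day myotubes, 1 value each, joined by a line coloured by the authors' call. H19 stands far above all other members in both conditions, while Meg3, Rian and Mirg drop from at most 2.95 FPKM to 0.0207 or to a listed 0 (triangles).

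H19 was by far the most abundant member. It was at 8036 FPKM in growing myoblasts and 35132 in 2-day myotubes, 4.37-fold higher (log2 2.13, SE 0.62, authors' deposited table). As H19 was chosen for this rise, the values describe it and do not test it. Among tested genes it moved from rank 24 to rank 6, and its share of the summed FPKM of tested genes went from 0.491% to 2.15%. The tested rows above H19 in myotubes were mt-Tc, mt-Ts1, mt-Ta, mt-Te and Mir5105. These are short features, so the rank depends on how FPKM scales with length. The row for Mir675, the microRNA precursor inside H19, had the highest FPKM of the whole table in myotubes, 318420, after 74642 in myoblasts. Its log2 ratio of 2.09 in the authors' deposited table lay close to that of H19, and it was not tested for too little data. The feature is short and lies within H19, so fragments of H19 and of the precursor cannot be told apart in these values. By Euclidean distance over log2(FPKM + 1) in the 2 conditions, the tested genes most like H19 were the mitochondrial tRNA genes mt-Tn (0.46), mt-Ta (0.56) and mt-Tp (0.89), followed by mt-Ty and by CT009594.1 (1.68).

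Nctc1, also chosen for its rise, had a low level. It was at 1.27 FPKM in growing myoblasts and 6.94 in 2-day myotubes, 5.46-fold higher (log2 2.45, SE 0.54, authors' deposited table). It ranked 14764 and 9892 among tested genes. Per length its level was far below that of H19 in both conditions. The tested genes nearest to Nctc1 by the same distance were Ankrd44 (0.04), Hist1h4c (0.12), Gm11856 (0.18), Dusp8 (0.18) and Hist2h2ab (0.19).

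Of the listed genes around H19 and Nctc1, 7 of 10 were tested. In myotubes 3 of them were higher and 0 lower by the call of the authors' deposited table, against 6.52% and 17.3% of all tested genes. The list was chosen with earlier results of these data known, so nothing is read from the difference between these shares. Igf2, the growth factor of the cluster, rose from 257 to 1632 FPKM (log2 2.66, SE 0.37, q = 7.93e-11, authors' deposited table). Tnnt3, the fast troponin T, rose from 244 to 4309 FPKM, and Tnni2, the fast troponin I, from 47.2 to 895, both by the call of the authors' deposited table. Tnnt3 was also among the myotube markers above, so its rise was already used there. The mitochondrial ribosomal gene Mrpl23, between Tnnt3 and Nctc1, was at 41.9 and 60.6 FPKM, and the leukocyte protein gene Lsp1, in a merged locus with Tnnt3, at 139 and 145, neither called in the authors' deposited table. Ctsd, a lysosomal protease, was at 479 and 505, also not called in the authors' deposited table, and Syt8 was at 3.23 and listed at 0. Ins2, Th and Ascl2 were at 0 in both conditions. The median log2 fold change of the 6 with a finite value was 1.60 in the authors' deposited table, against -0.41 for all tested genes. This median too is only a description of the chosen list.

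MyoD peaks and their scores are the authors' own calls on 1 ChIP sample of 8637045 tags (4049890 unique) against a control of 9129012 (4371189 unique). A peak was assigned to a member where its summit lay in the member's locus or within 50 kb. By this rule 7 of the 10 members had a peak, against 59.9% of tested genes, so the members' share lay near the background. The 7 members had 15 distinct peaks, of which 4 were assigned to both of a pair of neighbours. None of the 15 had a false discovery rate of at most 5% by the authors' caller, a level reached by 2086 of all 10756 peaks. The rates of the 15 ran from 6.21% to 23.8%, and their median was 19 tags and 11.8-fold enrichment, against 14 tags and 15.3-fold for all peaks.

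Among the members Nctc1 had the most peaks by this rule, while H19 had as many as Peg3 and fewer than Mest. H19 had 3 summits in or within 50 kb of its locus (chromosome 7 from 149761434 to 149764048, mm9), and 88.9% of tested genes had that many or fewer. Nctc1 (chromosome 7 from 149730514 to 149744501) had 5, and 95.9% of tested genes had that many or fewer. All 3 summits of H19 were among these 5. The peak inside Nctc1, from 149736005 to 149738451, held 110 tags, the 7th most of all 10756 peaks, and was 2447 bp wide, the 8th widest. Its enrichment was 8.99-fold, with a false discovery rate of 14.0%, and its summit lay 7601 bp inside Nctc1 from the 5' end and 27.1 kb downstream of the 5' end of H19. That is a tag-rich, broad peak with a low fold enrichment.

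The peak inside H19, from 149762398 to 149763988, held 45 tags over 1591 bp, and its summit lay 1308 bp downstream of the 5' end of the gene. Its enrichment was 5.96-fold, lower than that of nearly all peaks (percentile 0.660), while its tag count stood at percentile 97.0. Another peak, from 149747850 to 149748467 with 16 tags, lay between the genes, 3661 bp upstream of Nctc1. The remaining ones near Nctc1 were a 60-tag peak from 149685907 to 149686930, in the shared locus of Tnnt3 and Lsp1, and a 7-tag peak from 149708394 to 149708631. From 260 kb downstream to 130 kb upstream of the 5' end of H19 there were 11 summits, all 11 on the downstream side and 0 upstream. Igf2 had no peak within 50 kb, and its nearest summit was that in H19, 73933 bp away.

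**Figure D2:**
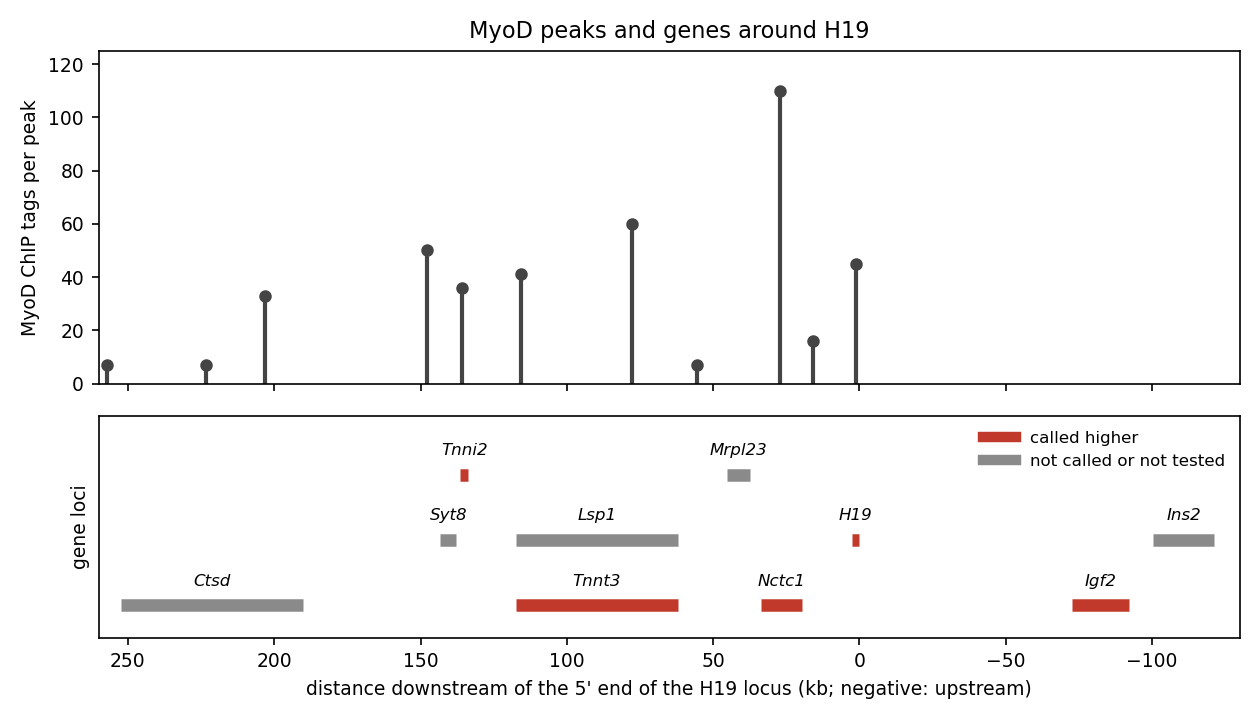
Tags of each MyoD peak (upper panel) and gene loci (lower panel) by distance downstream of the 5' end of the H19 locus in kb, with negative values upstream and loci coloured by the authors' call. The tallest peak, of 110 tags, lies in Nctc1, and the side towards Igf2 has no peak.

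In the second cluster, on chromosome 12, the maternally expressed RNAs were low in myoblasts and at or near 0 in myotubes. Meg3, a long non-coding RNA, was at 2.95 FPKM in growing myoblasts and 0.0207 in 2-day myotubes (log2 -7.16, SE 0.99, q = 6.56e-11, authors' deposited table). On the log2(FPKM + 1) scale this difference was -1.95, so the size depends on the treatment of values near 0. Rian, a host of C/D box small nucleolar RNAs, was at 0.969 FPKM and listed at 0 in myotubes (q = 0.0144, authors' deposited table). Mirg, a microRNA host, was at 0.334 and listed at 0, and was not tested.

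Dlk1, which encodes a transmembrane protein related to Notch ligands, was at 1.23 and 1.71 FPKM (log2 0.48, SE 1.03, q = 0.799, authors' deposited table). Its log2 fold change exceeded that of Meg3, 77664 bp away, by 7.64 (SE 1.43, from the authors' deposited table). On the log2(FPKM + 1) scale the differences were 0.285 for Dlk1 and -1.95 for Meg3. The size of that gap thus depends on the value of Meg3 near 0 in myotubes. From Dlk1 to Mirg the table held 85 rows over 297 kb, and 79 of them, microRNA and small nucleolar RNA rows included, were at 0 in both conditions. Above 0 in myotubes were 2 rows, Dlk1 and Meg3. RefSeq places 3 mature microRNA arms in Meg3, 6 in Rian and 19 in Mirg, the last with 18 distinct seeds. The microRNA rows within these loci were at 0 in both conditions except Mir1906-1 in Meg3, at 29.9 FPKM in myoblasts and listed at 0 in myotubes with too little data for a test.

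MyoD peaks were scarce in this cluster. Dlk1 (chromosome 12 from 110691033 to 110701546) and Meg3 (chromosome 12 from 110779211 to 110809936) shared 1 peak of 8 tags with an enrichment at percentile 91.3 of all peaks, 41817 bp and 35848 bp from their loci. Rian (chromosome 12 from 110842155 to 110899919) and Mirg (chromosome 12 from 110973191 to 110987665) had none within 50 kb, and their nearest summit was that same peak, 98792 bp and 229828 bp away.

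Grb10, an adaptor protein that inhibits the insulin and IGF receptors, was at 0.780 FPKM in growing myoblasts and 17.2 in 2-day myotubes. It rose 22.0-fold (log2 4.46, SE 1.19, 95% interval 2.13 to 6.79, q = 0.00165, authors' deposited table). On the log2(FPKM + 1) scale the difference was 3.35, a smaller fold, as the myoblast level was below 1 FPKM. The deposited fold change was the largest rise among the members, with the largest SE among those with a finite fold change, above 95.1% of tested genes. Its neighbour Ddc, the imprinted dopa decarboxylase gene, rose 6.27-fold to 69.0 FPKM (log2 2.65, SE 0.38, q = 3.65e-10, authors' deposited table). Grb10 minus Ddc was 1.81 on the log2 scale with an SE of 1.25, so the interval of that difference includes 0. Grb10 (chromosome 11 from 11830511 to 11938686) had a 7-tag peak inside its locus, 82638 bp downstream of its 5' end, and a 31-tag peak 37069 bp beyond its 3' end, inside the Ddc locus.

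Mest, which encodes a protein of the alpha/beta hydrolase fold, was at 328 FPKM in growing myoblasts and 54.8 in 2-day myotubes. It fell by 2.58 on the log2 scale, or 5.97-fold (SE 0.42, q = 4.96e-08, authors' deposited table). Copg2, a coatomer gene in the same merged locus, was at 88.1 and 75.9 FPKM. Its log2 fold change of -0.21 (SE 0.42, q = 0.781) did not pass the authors' test in the authors' deposited table. The log2 fold change of Mest minus that of Copg2 was -2.36 (SE 0.60, authors' deposited table). The locus (chromosome 6 from 30673547 to 30846794) is 173248 bp long against 14961 bp for Mest in RefSeq, so its 4 peaks of 7, 8, 17 and 19 tags belong to the region and not to Mest alone. No source used here says whether strand was counted, so reads of overlapping transcripts in the locus cannot be told apart.

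Peg3 and Plagl1, both zinc finger proteins of growth control, were not called. Peg3 was abundant, at 248 FPKM in growing myoblasts and 121 in 2-day myotubes (log2 -1.03, SE 0.75, q = 0.357, authors' deposited table). The interval of its log2 fold change, -2.51 to 0.45, includes 0. Its neighbour Zim1, a zinc finger gene of the same cluster, was at 25.7 and 16.7 FPKM, not called in the authors' deposited table. Peg3 (chromosome 7 from 6656603 to 6683132) had 3 peaks of 34, 19 and 25 tags, at 26562, 34954 and 46887 bp upstream of its 5' end. Plagl1 was at 4.56 and 2.68 FPKM (log2 -0.77, SE 0.91, q = 0.616, authors' deposited table). Plagl1 (chromosome 10 from 12810497 to 12851500) had no peak within 50 kb, its nearest lying 81915 bp away.

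**Figure D3:**
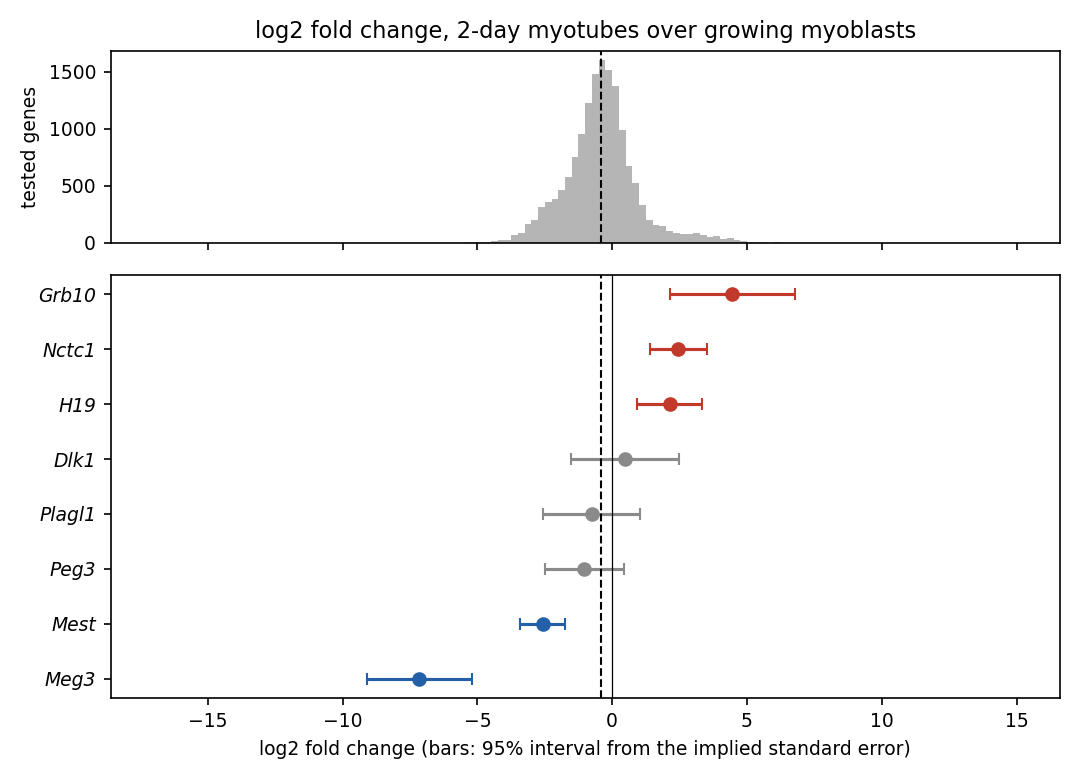
Log2 fold changes of the 8 members above 0 in both conditions with 95% intervals from the implied SE (lower panel), below the histogram of all tested genes above 0 in both (upper panel), with a dashed line at their median of -0.41. The intervals of Dlk1, Plagl1 and Peg3 cross 0, and Meg3 at -7.16 and Grb10 at 4.46 mark the ends. The intervals of H19 and Nctc1 are not tests, since both genes were chosen for their rise.

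At the edge of the 50 kb rule, the farthest summits counted were that of Peg3 at 46887 bp and those of Nctc1 at 44348 bp and Mest at 42901 bp. The nearest not counted were those of H19 at 52952 bp and Mest at 55830 bp. With the locus alone, without flanks, 4 members had a peak, H19, Nctc1, Mest and Grb10, against 27.5% of all tested genes. Within 10 kb the same count of 4 stood against 38.8%, and within 100 kb 9 members against 72.8%. At a false discovery rate of at most 5% it was 0 members against 21.4%, and with at least 20 tags 4 members against 31.1%. Tested genes called higher in myotubes had a peak within 50 kb in 75.8% of cases and those called lower in 59.4%, against 58.6% of those not called.

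**Figure D4:**
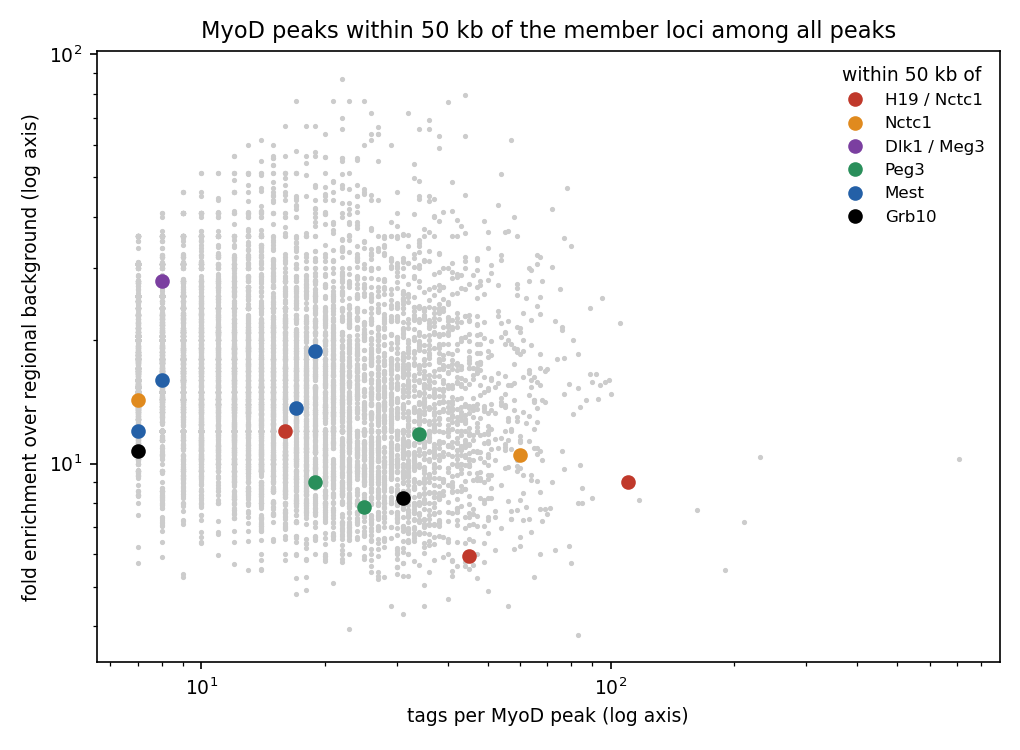
Tags (x axis, log) and fold enrichment (y axis, log) of all 10756 MyoD peaks in grey and of the 15 peaks within 50 kb of members in colour. The peak in Nctc1 lies far right at 110 tags, and the peak in H19 near the lower edge at 5.96-fold.

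The members were set beside a list of 69 other imprinted genes, of which 65 were in the table and 41 were tested. By the authors' deposited table, 8 of these were higher and 8 lower (39.0% called), against 23.9% of all tested genes. After centring on the median gene the split was 10 higher, with Tssc4 and Trappc9 added, and 5 lower. The median log2 fold change of the 41 was 0.21 in the authors' deposited table, against -0.41 for all tested genes.

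The largest rises in the list were of Cobl, an actin nucleator, from 26.1 to 393 FPKM (log2 3.91 and SE 0.35 from the authors' deposited table), and Zdbf2, a zinc finger gene, from 1.01 to 13.9. Cdkn1c, which encodes the cell cycle inhibitor p57, went up from 3.08 to 33.6 FPKM and Gatm, an enzyme of creatine synthesis, from 13.3 to 98.2, each by the call of the authors' deposited table. The other genes that rose by the authors' deposited table were Igf2, Ddc, Tnfrsf23 and Gnas. These genes span levels from 1.01 to 1097 FPKM in growing myoblasts.

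Among the genes called lower, the largest falls were of Nnat, a small membrane proteolipid gene, from 31.4 to 4.36 FPKM (log2 -2.85 with an SE of 0.51, by the authors' deposited table), and Peg12, from 19.4 to 3.29. Inpp5f, an inositol phosphatase gene, fell from 18.7 to 4.32 FPKM, and Ndn, a MAGE family gene, from 17.7 to 4.16, each by the call of the authors' deposited table. Sgce, Blcap, Pon3 and Ampd3 were the others called lower in the authors' deposited table. Ndn, Pon3 and Ampd3 were not called after centring. Slc22a18, an organic cation transporter gene, had a larger log2 fold change of -3.83 but also a large SE of 2.03, at 1.20 and 0.0840 FPKM, and was not called (q = 0.171, authors' deposited table). The cluster neighbours of Dlk1 and Meg3 in the list, Dio3, Rtl1 and Begain, were not tested, with at most 0.0404 FPKM. Of the 41 tested genes, 29 (70.7%) had a MyoD peak within 50 kb, among them 6 of 8 called higher and 5 of 8 called lower. Over all tested genes the shares were 59.9%, and 75.8% and 59.4% of those called higher and lower.

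**Figure D5:**
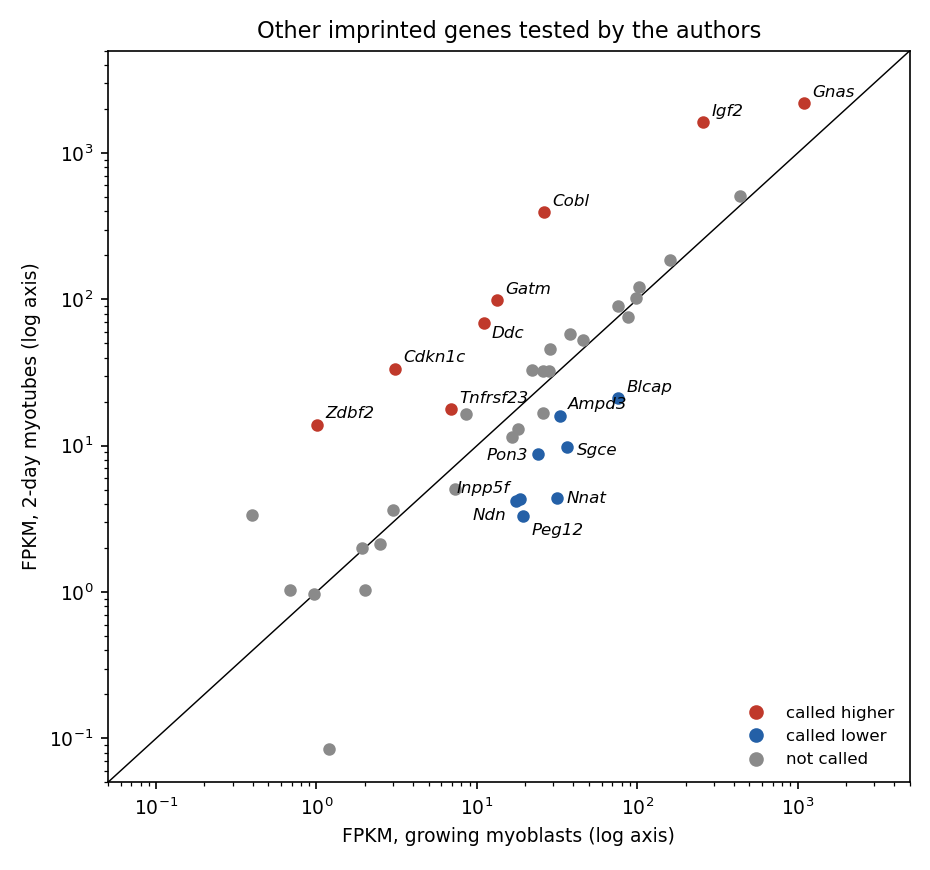
FPKM in growing myoblasts (x axis, log) and 2-day myotubes (y axis, log) of the 41 other imprinted genes tested by the authors, with the line of equal values. The 8 called higher, from Zdbf2 at 1.01 to Gnas at 1097 FPKM in myoblasts, lie above the line, and the 8 called lower lie below it.

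Genes that maintain imprints and DNA methylation were tested in 13 cases, of which 0 rose and 5 fell by the call of the authors' deposited table, with a median log2 fold change of -0.79. Over all tested genes 6.52% were called higher and 17.3% lower, with a median of -0.41, and the median of the list after centring was -0.37. Uhrf1, which brings the maintenance methyltransferase to replicating DNA, fell from 87.1 to 10.8 FPKM, or log2 -3.02 (SE 0.39, q = 2.22e-12, authors' deposited table). Dnmt1, that methyltransferase, fell from 58.4 to 13.2 FPKM and Dnmt3b, a de novo enzyme, from 2.50 to 0.208, each by the call of the authors' deposited table. Smchd1, a chromosomal silencing protein, fell from 29.4 to 7.49 FPKM and Trim28, the corepressor of zinc finger proteins, from 537 to 284, each by the call of the authors' deposited table. Ctcf, the insulator protein, was at 47.4 and 27.5 FPKM and Zfp57, which reads methylated imprints, at 38.0 and 28.7, both not called in the authors' deposited table. After centring, Trim28 was no longer called, Dnmt3a, at 10.6 and 17.8 FPKM, was called higher, and the split was 1 higher and 4 lower.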

How the data were processed

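Expression values were FPKM as deposited by the authors, 1 per gene and condition, in a Cuffdiff gene table, with Cuffdiff, CASAVA 1.7.0 and the mm9 build in the submitters' processing notes. No source used here states the aligner, annotation, normalization setting or version of Cuffdiff, or how the duplicates that the labels' protocol mentions were combined. The antibodies in that protocol include none to MyoD. The log2 fold changes, p-values and q-values are the authors' own from the deposited table, and 2 deposited copies were identical. Loci start from 0 in the table, since 3675 loci then match RefSeq lengths exactly against 331 otherwise; coordinates are printed from 1.

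Peaks were called with MACS (1.3.7 in the submitters' processing notes) at a p-value threshold of 1.00e-05, per the file headers. Tags per peak are counts, the p score is 10 times a negative log10 of p, the fold enrichment is a ratio and the false discovery rate is a percent, all as deposited by the authors.

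SEs were computed as the size of the log2 fold change over the test statistic, and 95% intervals as 1.96 SE either way. Centring subtracted the median and recomputed p from the SE with Benjamini-Hochberg adjustment over 15416 genes; this step was tested on simulated data. Differences between genes assume independent errors. Members and lists were chosen with earlier results of these data known. Named were all members, the neighbours of H19 and, per list, up to 4 called genes per direction with the largest fold change; further genes that complete a count were named after their values were seen. Kcnq1ot1, Peg13, Snurf and Zfp264 were not found by symbol. Alternatives changed the q threshold, centring, pseudocounts, a filter on low FPKM, the peak window, peak strength and the E-box form. Python 3.11.15 with pandas 2.3.3, numpy 2.4.6 and scipy 1.17.1 was used.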

Additional observations from a re-analysis of the deposited data

How the results depend on the processing

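With 1 value per condition, no sample could be left out, and no paired analysis was possible because each group holds 1 sample. The calls of the 10 members stayed within 1.5 times their counts under a q of at most 0.01 and under centring, where Rian was lost from those called lower. Among other imprinted genes the count called lower went from 8 to 5 at a q of at most 0.01 and also to 5 after centring. Among genes of the IGF axis, the counts called higher and lower each went from 2 to 1 at a q of at most 0.01, and that called lower was 1 after centring. Imprint maintenance genes called higher went from 0 to 1 after centring. Members with a peak within 50 kb (7) became 4 in the locus alone, 4 within 10 kb, 4 with at least 20 tags and 0 at a false discovery rate of at most 5%. Distinct peaks (15) became 5, 6, 6 and 0, and the share of tested genes with a peak (59.9%) became 27.5%, 38.8%, 31.1% and 21.4%, in the same order. Each of these settings admits fewer peaks by construction. Promoter windows with an E-box went from 9 to 1 with the narrower forms alone. A pseudocount of 1 moved the log2 fold change of Nctc1 to 1.81, that of Grb10 from 4.46 to 3.35 and that of Meg3 to -1.95, and 0.1 moved Meg3 to -4.66. Low levels thus limit the size of change that can be stated for Meg3, Rian, Mirg, Nctc1 and Grb10.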

Other observations

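Genes of the IGF axis that several members act on moved in both directions. Of the 9 tested, 2 rose and 2 fell by the call of the authors' deposited table, and the split was 2 and 1 after centring. Over all tested genes 6.52% were called higher and 17.3% lower. Besides Igf2, Insr, the insulin receptor, rose from 6.35 to 19.1 FPKM, or log2 1.59 (SE 0.54, q = 0.0176, authors' deposited table). Irs1, an adaptor of both receptors, fell from 20.9 to 5.25 FPKM and Igf2bp2, an RNA-binding protein of Igf2 mRNA, from 73.8 to 25.8, each by the call of the authors' deposited table, and Irs1 was not called after centring. Igf2r, the imprinted receptor that clears the growth factor, was at 45.7 and 52.9 FPKM and Igf1r, the signalling receptor, at 17.2 and 9.54, both not called in the authors' deposited table. Igf1 was not tested, at 0.398 and 0.124 FPKM.

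Genes described as targets of H19 or of miR-675 were tested in 6 cases, of which 4 fell and 0 rose by the call of the authors' deposited table, with a median log2 fold change of -1.40. That median was -0.99 after centring, and over all tested genes it was -0.41 as deposited. Of all tested genes, 17.3% were called lower and 6.52% higher. Cdc6, a replication licensing factor, fell from 15.8 to 1.59 FPKM, or log2 -3.31 (SE 0.56, authors' deposited table), and Hmga2, a chromatin protein, from 111 to 14.3. Igf2bp2 was also on this list, and Smad5, a BMP signal transducer, fell from 77.8 to 31.9 FPKM by the call of the authors' deposited table. Smad1, its paralog, was at 23.8 and 19.4 FPKM and Dicer1, which processes microRNA precursors, at 21.5 and 11.1, both not called in the authors' deposited table. The list was not split by the direction of the effect described for each gene, so no expected sign goes with its counts or median. Whether H19 has a part in these levels was not tested.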
